A study of Mus musculus with 2 samples.

Results

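The miR-28 and miR-151 family was taken as every listed miRNA whose name begins with mmu-miR-28a-, mmu-miR-28c- or mmu-miR-151-. The rule found 4 mature arms in each library, mmu-miR-151-3p, mmu-miR-151-5p, mmu-miR-28a-3p and mmu-miR-28a-5p, of 197 named miRNAs in the series and 151 listed in both libraries. No arm of miR-28c was listed, and neither was any arm of miR-708, a relative outside the rule. The arms come from 2 hairpins, Mir151 and Mir28a, and each had a single listed locus in each library.

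The RNA came from liver of C57BL/6 mice of wild-type genotype, 2 to 3 months old, with food always available. The labels give 1 group with 2 replicate libraries and no treated group, so every comparison here is between arms, between hairpins or between the replicates. The labels leave unsaid whether separate animals were used, and p-values then measure only the difference between these libraries, which may be technical. The named miRNAs held 306351 counts in replicate 1 and 538023 in replicate 2, and shares below are of these totals. The hepatocyte miRNA miR-122-5p was listed at 2.77% ± 0.380 (SD, n = 2), at rank 10 in replicate 1 and 8 in replicate 2. All 3 hepatocyte markers looked for (miR-122, miR-192 and miR-194) were listed in each library.

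A miRNA hairpin is cut by Drosha and Dicer into a short duplex, and either strand, the 5p or the 3p arm, can be loaded onto an Argonaute protein. The loaded arm pairs with target transcripts chiefly through its seed, bases 2 to 8 from the 5′ end, so arms with different seeds have largely different targets. miR-28 and miR-151 are related hairpins that derive from LINE-2 repeats and lie in introns of host genes. In liver, miR-151 is best known from hepatocellular carcinoma, where it is studied together with its host PTK2, and miR-28 is studied mainly in B cells and blood cell formation.

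The mature sequences are shown because they set which arms could share targets. The miR-151 arms are as the deposited files list them, identical in both libraries. The miR-28a arms and miR-708-5p are from RefSeq (GRCm38.p6). Capitals mark the seed.

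miR-151-5p: uCGAGGAGcucacagucuagu

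miR-28a-5p: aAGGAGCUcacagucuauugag

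miR-708-5p: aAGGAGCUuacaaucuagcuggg

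miR-151-3p: cUAGACUGaggcuccuugagg

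miR-28a-3p: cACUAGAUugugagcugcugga

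The 4 arms of the family had 4 different seeds. miR-28a-5p shares its seed AGGAGCU with miR-708-5p, the only other mature sequence in the RefSeq table that has it. That table has no entry for miR-151 or miR-28c, so a seed shared with miR-28c could not be looked up. No other named miRNA in either library carried the seed of a family member. The 5p arms are close in sequence but offset. They share a run of 16 bases, shown here in capitals, which begins at base 2 of miR-28a-5p and at base 4 of miR-151-5p.

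miR-28a-5p: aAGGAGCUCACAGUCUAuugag

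miR-151-5p: ucgAGGAGCUCACAGUCUAgu

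The seed of miR-28a-5p is therefore present in miR-151-5p at bases 4 to 10, outside the seed position of that arm. Aligned on this run without gaps, 17 of 19 overlapping bases are identical. The 3p arms are less alike. Their longest shared run is the 5 bases CUAGA, and 10 of 20 overlapping bases are identical in that alignment. The sources used here do not give how the authors' counting treated reads that match more than 1 locus, so the split of short reads between the 5p arms, or between miR-28a-5p and a copy at Mir28c, is uncertain.

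Mir151 supplied nearly all of the family's counts. Replicate 1 gave the family 1.37% of named miRNA counts (exact Clopper-Pearson 95% interval 1.32 to 1.41), and replicate 2 gave it 1.74% (1.70 to 1.77). Mir151 held 4092 and 9234 counts, or 97.8% and 98.8% of the family, and Mir28a held 90 and 112. In read counts the Mir151 hairpin thus exceeded Mir28a 45.5-fold in replicate 1 and 82.4-fold in replicate 2. Whether the libraries capture different sequences equally well was not tested, so folds between hairpins or arms are folds of counts. All intervals cover counting error only. They can be too narrow even for that, since reads without molecular identifiers are not independent molecules.

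miR-151-3p, the arm that the files count most, had 3628 counts in replicate 1 and 8492 in replicate 2. These are 1.18% (95% interval 1.15 to 1.22) and 1.58% (1.55 to 1.61), a mean of 1.38% ± 0.279 (SD, n = 2). The arm ranked 17 in replicate 1 and 13 in replicate 2 among named miRNAs. Its neighbours in mean level were miR-10a-5p above (1.63% ± 0.422) and miR-192-5p below (1.37% ± 0.122), and the replicate values of both overlapped its own. miR-192-5p, at 1.46% in replicate 1 and 1.28% in replicate 2, was above miR-151-3p in the former and below it in the latter. It is one of the hepatocyte markers, but the others lay further off, miR-122-5p at 2.77% and miR-194-5p at 0.347%. The cell type that miR-151-3p came from was not tested.

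miR-151-5p, the opposite arm of the same duplex, had 464 and 742 counts, or 0.151% (95% interval 0.138 to 0.166) and 0.138% (0.128 to 0.148). Its mean was 0.145% ± 0.00958. It ranked 42 and 39 in the respective libraries. The replicate values did not overlap those of its upper neighbour miR-107-3p (0.175% ± 0.0119) and did overlap those of miR-15b-5p just below it (0.136% ± 0.0570).

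miR-28a-3p was counted 78 times in replicate 1 and 83 times in replicate 2, although the latter was deeper. Its share was 0.0255% (95% interval 0.0201 to 0.0318) and 0.0154% (0.0123 to 0.0191), with a mean of 0.0204% ± 0.00710. miR-28a-5p, the arm with the miR-708 seed, was lowest, with 12 and 29 counts. Its share was 0.00392% (0.00202 to 0.00684) and 0.00539% (0.00361 to 0.00774), with a mean of 0.00465% ± 0.00104. The neighbours of miR-28a-3p were miR-146a-5p and miR-1839-5p, and those of miR-28a-5p were miR-1843a-3p and miR-345-5p. The replicate values of each of these neighbours overlapped those of the family arm beside it.

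The order miR-151-3p, miR-151-5p, miR-28a-3p, miR-28a-5p was the same in both libraries, and the replicate values of no pair of family arms overlapped. The fall from the highest to the lowest arm covers ranks 16 to 104 of the 151 miRNAs listed in both libraries.

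**Figure D1:**
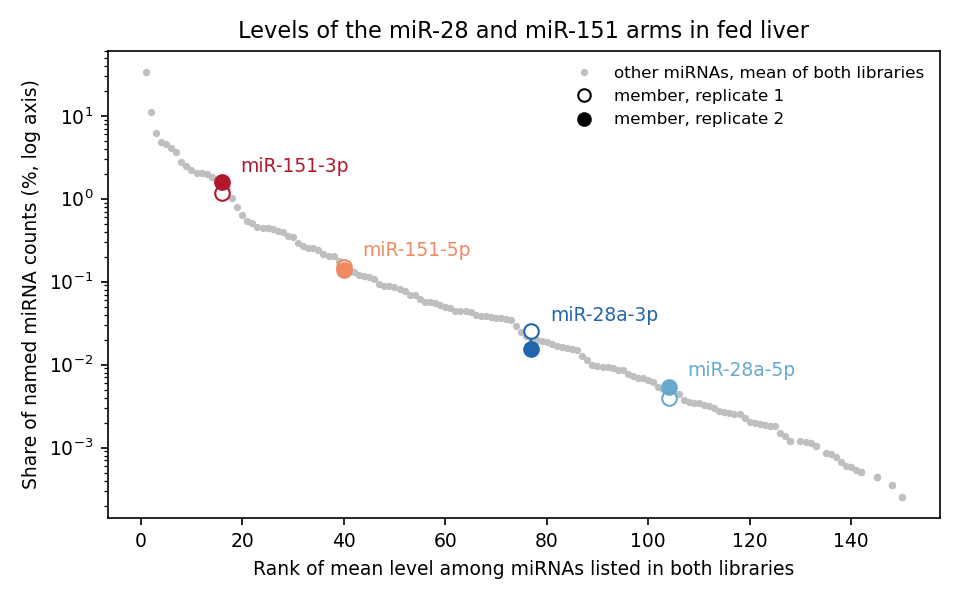
Share of named miRNA counts (%, log axis) against rank of mean level for the 151 miRNAs listed in both libraries. Grey points are means of both libraries, and coloured points are the family arms, open for replicate 1 and filled for replicate 2. The family arms lie at ranks 16, 40, 77 and 104 with no overlap among them.

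Both hairpins were dominated by the 3p arm in both libraries. Of the Mir151 counts, the 5p arm held 11.3% (95% interval 10.4 to 12.4) in replicate 1 and 8.04% (7.49 to 8.61) in replicate 2. The 3p arm exceeded the 5p arm 7.82-fold and 11.4-fold. In Mir28a the 5p arm took 13.3% (7.08 to 22.1) and 25.9% (18.1 to 35.0), and the 3p arm exceeded it 6.50-fold and 2.86-fold. The departure of Mir28a from equal arms passed a 2-sided exact binomial test in each library, with Benjamini-Hochberg adjusted p = 6.79e-13 and 3.97e-07. That test called 95.7% of the 47 tested hairpins in each library, and 53.2% and 51.1% were called in favour of 3p.

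The family hairpins kept more of the minor arm than the median tested hairpin. Over the 47 tested hairpins the median share of the minor arm was 0.996% in replicate 1 and 0.935% in replicate 2. An arm that several hairpins can make was counted with a single one of them. The minor share of such a hairpin, and with it the median, can therefore be too low. Hairpins with an arm unlisted in either library were left out. If those arms were rare, the median is too high for hairpins in general. By mean share of the minor arm, Mir28a ranked 11 and Mir151 ranked 12 among the 47 tested hairpins. Mir151 was also among the most counted tested hairpins, at rank 11 in replicate 1 and 9 in replicate 2, while Mir28a ranked 36 and 38.

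The hairpins nearest to Mir151 in mean 5p share, over the same 2 libraries, were Mir148a (7.91% ± 0.144), Mir671 (7.38% ± 0.785) and Mir203 (5.25% ± 2.86), against 9.69% ± 2.34 for Mir151. Those nearest to Mir28a (19.6% ± 8.88) were Mirlet7d (20.9% ± 11.3), Mir872 (23.9% ± 1.61) and Mir99b, which stood at 29.4% in each library.

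The arm share of Mir151 differed between the libraries, and that of Mir28a did not pass the test after adjustment. The 5p share of Mir151 fell by 3.30 percentage points from replicate 1 to replicate 2 (Fisher's exact test, 2-sided, adjusted p = 4.53e-08 over 47 hairpins). Of all tested hairpins 8.51% were called in this comparison. For Mir28a the difference was 12.6 percentage points in the opposite direction, and with 90 and 112 counts it did not pass after adjustment over the 47 hairpins (Fisher's exact test, p = 0.0344, adjusted p = 0.231).

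**Figure D2:**
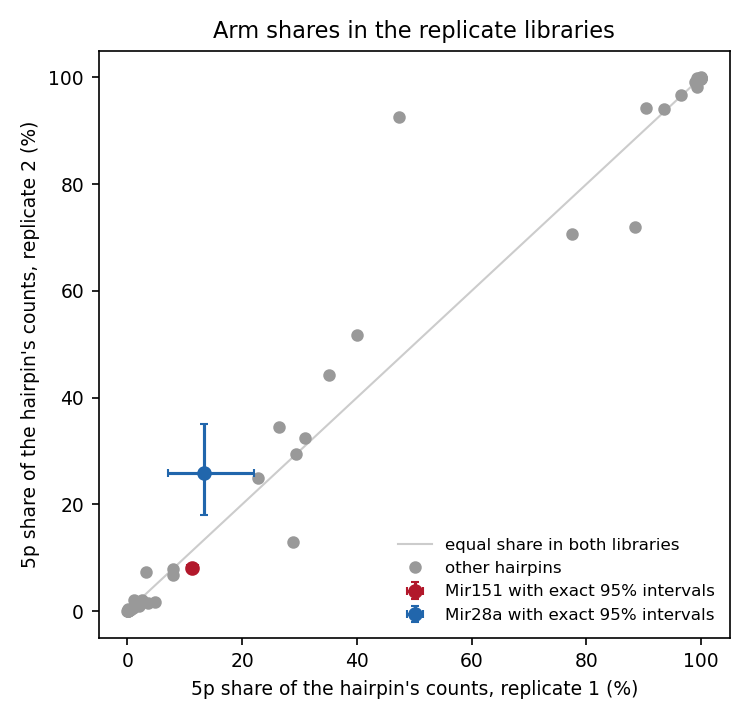
The 5p share of each hairpin's counts (%) in replicate 1 against replicate 2 for the 47 tested hairpins. Bars on the coloured points are exact 95% intervals. Mir151 lies at 11.3% and 8.04% with bars about the size of its point, and Mir28a at 13.3% and 25.9% with wide bars.

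Between the libraries, miR-151-3p was higher and miR-28a-3p lower in replicate 2, and the 5p arms did not pass the test. Ratios are log2 of replicate 2 to replicate 1 at effective library sizes from TMM, a scaling that trims extreme miRNAs, and their errors are counting errors. miR-151-3p had a log2 ratio of 0.58 ± 0.03 (2-sided exact binomial test, adjusted p = 7.85e-94). For miR-28a-3p it was -0.56 ± 0.23 (same exact test, adjusted p = 0.0361). These 2 calls among 4 arms stand beside 44.3% of the 131 tested miRNAs called in either direction, 21.4% higher and 22.9% lower in replicate 2, so the family's share of calls was near that of all miRNAs.

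For miR-151-5p the log2 ratio was 0.03 ± 0.09 (exact binomial test, adjusted p = 0.877), and for miR-28a-5p it was 0.59 ± 0.50 (adjusted p = 0.390 by the exact test). Scaling by library totals shifted the median log2 ratio over the tested miRNAs, which was -0.03 with TMM, to -0.19. The ratio of miR-151-5p then changed sign to -0.14, still not past the test, and the calls of both 3p arms held (0.41 for miR-151-3p and -0.72 for miR-28a-3p). Library totals called 48.9% of miRNAs, 14.5% higher and 34.4% lower.

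In size, the ratios of 3 family arms were larger than most. The absolute log2 ratio of miR-151-3p lay at percentile 72.5 of the tested miRNAs, that of miR-28a-3p at 71.0 and that of miR-28a-5p at 74.8, while miR-151-5p lay at 5.34. The median absolute log2 ratio of all 131 was 0.35. The arms of Mir151 had log2 ratios of 0.58 and 0.03, and the test of its arm share given above passed. Those of Mir28a were -0.56 and 0.59, the latter with a counting error of 0.50, and its arm share did not pass after adjustment.

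The miRNAs nearest in log2 ratio over these 2 libraries were miR-671-3p and miR-181a-5p, both 0.58, and miR-28a-5p for miR-151-3p. For miR-151-5p they were miR-107-3p (0.02), miR-340-5p (0.04) and miR-194-5p (0.01). For miR-28a-3p they were miR-872-3p (-0.57), miR-5099 (-0.54) and let-7i-5p (-0.61). For miR-28a-5p they were miR-181a-5p, miR-671-3p and miR-181c-5p (0.60).

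**Figure D3:**
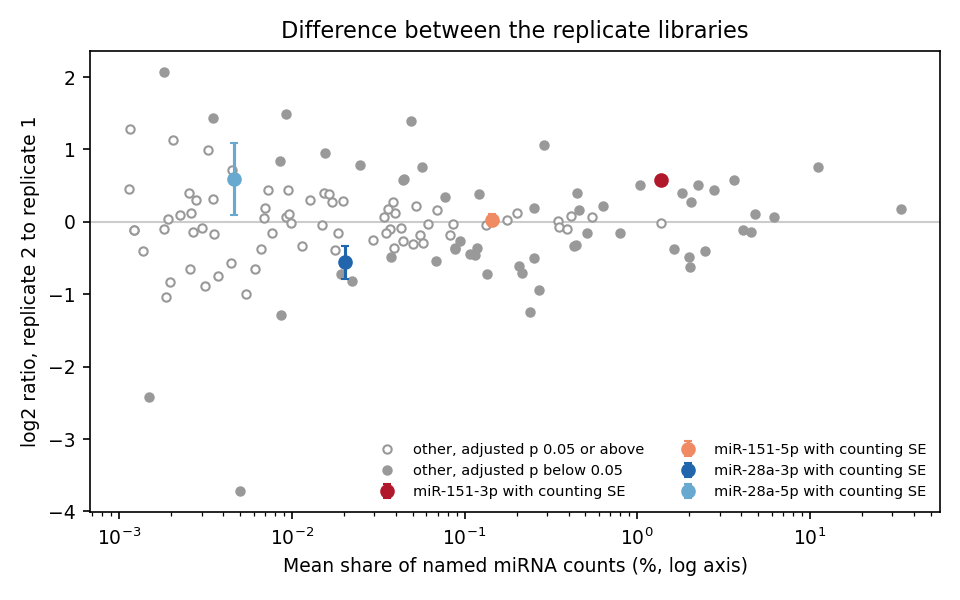
Log2 ratio of replicate 2 to replicate 1 against mean share of named miRNA counts (%, log axis) for the 131 tested miRNAs. Filled grey points passed the exact binomial test after adjustment and open ones did not, and bars on the coloured family arms are counting standard errors. miR-151-3p lies above 0 at 0.58 and miR-28a-3p below 0 at -0.56, each among other called miRNAs.

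The listed 5′ ends of miR-28a, which set the seed, were the same as the RefSeq ends in both libraries. This was so for 90.1% of the 142 arms of replicate 1 and 89.2% of the 157 arms of replicate 2 that could be matched to RefSeq by name and position. At the 3′ end miR-28a-5p was listed with 23 bases in both libraries, 1 more than the 22 of RefSeq, and the extra base was A. miR-28a-3p also carried an extra A in replicate 1 and ended at the RefSeq end in replicate 2. A 3′ end 1 base longer than RefSeq was found for 14.8% of matched arms in replicate 1 and 16.6% in replicate 2. The listed forms, with the seed in capitals, were as follows.

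miR-28a-5p, both libraries: aAGGAGCUcacagucuauugaga

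miR-28a-3p, replicate 1: cACUAGAUugugagcugcuggaa

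miR-28a-3p, replicate 2: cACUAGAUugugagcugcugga

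Both miR-151 arms had 21 bases and were listed with the same sequence in both libraries. Of 150 miRNAs listed at the same locus in both libraries, 79.3% had the same mature sequence.

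The hairpin that the files list around miR-151 differed between the libraries in the stretch between the arms. The listed hairpins are shown because they hold both arms and this stretch, with the arms in capitals.

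Mir151, replicate 1: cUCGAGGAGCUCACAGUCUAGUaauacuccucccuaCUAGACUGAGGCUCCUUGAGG

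Mir151, replicate 2: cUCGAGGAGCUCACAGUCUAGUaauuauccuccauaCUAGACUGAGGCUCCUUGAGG

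Mir28a, replicate 2: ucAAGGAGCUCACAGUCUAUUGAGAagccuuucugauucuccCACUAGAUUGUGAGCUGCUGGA

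From replicate 1 to replicate 2 the Mir151 hairpin carried A26U, C27A and C34A, with positions counted from the first base of the listed hairpin and the base of replicate 1 given first. All 3 lie in the 14 bases between the arms, which end at position 22 and start at position 37. Such differences were common, found for 80 of the 137 miRNAs whose listed hairpin had the same start and end in both libraries (58.4%), and in 76 of the 80 they lay outside the listed arm. A listed hairpin is thus a sequence from the deposited file and was not taken as the genome sequence. For Mir28a the stretch between the arms was 17 bases and the same in both libraries.

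In the structures that the deposited files give for these hairpins, 18 base pairs joined the listed arms of Mir151 and 15 joined those of Mir28a, in each library. Of the 21 bases of each miR-151 arm 19 were paired. miR-28a-5p had 19 of 23 bases paired, and miR-28a-3p had 18 of 23 in replicate 1 and 17 of 22 in replicate 2.

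Both hairpins lie in introns of protein-coding genes on the host's own strand, by GENCODE M21 on GRCm38. Mir151 is at chr15:73254815-73254882, minus strand, inside Ptk2, which encodes focal adhesion kinase, a tyrosine kinase of cell-matrix contacts. In the principal Ptk2 transcript with 32 exons it lies in intron 22 of 31, which has 14556 bases, 2151 bases after the upstream exon. The arms were listed at chr15:73254855-73254875 (5p) and chr15:73254820-73254840 (3p).

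Mir28a is at chr16:24827855-24827940, plus strand, inside Lpp, which encodes a LIM-domain protein of cell adhesions. In the principal Lpp transcript with 13 exons it lies in intron 8 of 12, which has 82814 bases, 65578 bases after the upstream exon. The 5p arm was listed at chr16:24827868-24827890 in both libraries. The 3p arm was listed at chr16:24827908-24827930 in replicate 1 and chr16:24827908-24827929 in replicate 2. None of the annotated transcripts that span either hairpin (5 of Ptk2 and 3 of Lpp) has an exon there.

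The relatives that were not listed are annotated in the same way. Mir28c (chr15:53614205-53614279, minus strand) lies in an intron of Samd12 and Mir708 (chr7:96249424-96249532, plus strand) in an intron of Tenm4, each on the host's strand. The files list called loci only, so an unlisted arm sets no upper limit on its level. Host transcripts were not measured in these libraries.

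**Figure D4:**
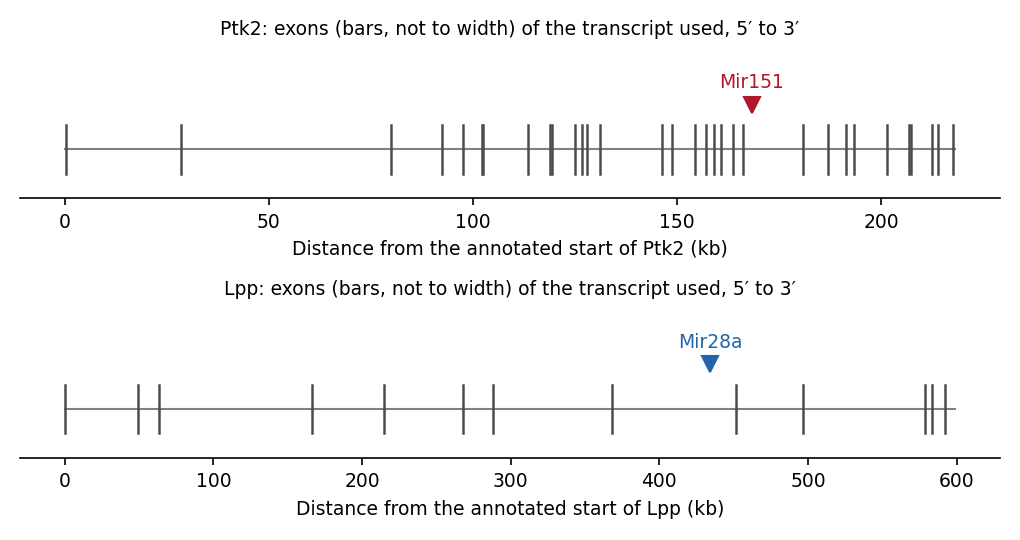
Position of each hairpin (triangle) along its host gene, in kb from the annotated start of the gene, with exons of the transcript used as bars drawn without width. Mir151 lies 168 kb into Ptk2, which spans 218 kb, and Mir28a lies 434 kb into Lpp, which spans 599 kb.

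Among intronic miRNAs, the class that the files assign by position, the family stood near the top through 1 arm. In replicate 1, 60 of 165 named miRNAs were intronic and held 17.2% of counts, and in replicate 2, 66 of 183 held 17.9%. The family supplied 7.93% and 9.71% of those intronic counts. miR-151-3p ranked 5 among intronic miRNAs in both libraries, miR-151-5p 14 and 13, miR-28a-3p 27 and 32, and miR-28a-5p 42 in each.

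Summed shares of marker miRNAs of other liver cells were not tested between the libraries. The part of cell makeup in the values above was not tested either. The summed share of the 4 stellate markers was 0.559% in replicate 1 (3 of 4 listed) and 0.349% in replicate 2 (4 of 4 listed). The markers in this sum did not move alike. From replicate 1 to replicate 2, miR-145a-5p went from 0.346% to 0.130%, miR-143-3p from 0.205% to 0.199% and miR-214-3p from 0.00261% to 0.00297%. The immune markers took 0.311% and 0.197%, with 1 of 4 listed in each, and miR-142a, miR-223 and miR-155 were not listed. Endothelial miR-126a took 0.0444% and 0.0355%, and biliary markers, with 1 of 3 listed, 0.0206% and 0.0309%. Of 4 erythroid markers none was listed in replicate 1 and 1 in replicate 2, at 0.00260%. By the exact binomial test per miRNA, miR-145a-5p and miR-150-5p were called lower and miR-200b-3p higher in replicate 2. The arms of miR-126a, miR-143 and miR-214 that were tested were not called. Among the hepatocyte markers, miR-122-5p was called higher in replicate 2 (log2 ratio 0.44, exact binomial test, adjusted p = 8.04e-112). The 5p arm of miR-192 (log2 ratio -0.02) did not pass, nor did that of miR-194 (0.01). Of their rarer arms, miR-192-3p, with 2 and 16 counts, was called higher. miR-194-2-3p, with 8 and 2 counts, was called lower. Of all 131 tested miRNAs 44.3% were called. Fewer cells of a type and less of a miRNA per cell cannot be told apart in such bulk tissue.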

How the data were processed

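Per the labels' protocols, 1 µg of total liver RNA entered each TruSeq small RNA library. Bowtie 1.0.1, cutadapt 1.5, FastQC 0.11.2 and the build GRCm38 are named in the submitters' processing notes. The sources used here do not give the program that called loci, its filters or its handling of reads with several matches. The deposited files give whole-number read counts per called locus, not normalised. Positions counted from 0 and were raised by 1.

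The highest locus per mature name was used. The 32 and 33 loci without a miRNA name, with 5.02% and 2.46% of all listed counts, stayed out of totals and tests. For each miRNA the libraries were compared by an exact binomial test, 2-sided (SciPy 1.17.1), at TMM sizes from edgeR 4.0.16, for the 131 miRNAs listed in both with at least 10 counts summed, with Benjamini-Hochberg adjustment, a threshold of 0.05 and a prior count of 0.5 in log2 ratios. With 1 group no quasi-likelihood test was possible. Arm shares were tested in the 47 hairpins with both arms listed in both libraries and at least 20 counts in each. Host transcripts were the principal ones with most exons. Of the 4 family arms, both miR-28a arms matched the RefSeq table.

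The miRNAs named are the family arms, the neighbours in level just above and below and the 3 nearest in log2 ratio. Also named are the 3 hairpins nearest in 5p share, sharers of a seed, the cell type markers and miR-122-5p. Members and lists were chosen with earlier results of these data known. The tests were checked on simulated Poisson and binomial counts at known library totals. That check does not cover spread between libraries beyond counting error.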

Additional observations from a re-analysis of the deposited data

Results flagged for a closer look

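A locus without a miRNA name in replicate 2 carried the seed of miR-151-3p and held 109 counts, which lie outside the totals and tests above. It was listed at chr5:83278374-83278393, plus strand, as cUAGACUGaggcuccuugaa, with the seed in capitals. Its first 19 bases are those of miR-151-3p, and the last is G20A, counted from the 5′ end with the base of miR-151-3p first. Its counts equal 1.28% of those of miR-151-3p in that library, and it was not listed in replicate 1, which sets no limit on its level there. The deposited file calls the position intergenic, while GENCODE M21 places it on the strand opposite to Tecrl, within an exon of 1 of its 2 annotated transcripts. Whether its reads come from that position or from Mir151 was not tested.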

How the results depend on the processing

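No paired analysis was possible because the labels give 1 group. Of 39 values under settings that keep both libraries, 38 kept their direction and their side of the threshold, moved by no more than the SD between the libraries (values with no test) or stayed within 1.5-fold (counts of miRNAs). The exception was the log2 ratio of miR-151-5p, which changed from 0.03 to -0.14 with library totals. Some of the 38 were fixed in part or in full by the setting. Each family arm had a single listed locus, so summing loci left the arm shares as they were. A different minimum count kept the same library sizes, so it left each log2 ratio unchanged and could alter only the adjusted p. These values say little about stability. Another 12 values, without replicate 1 or without replicate 2, equal the single-library levels and arm shares in the text. With 2 libraries they always lie within the SD of the mean, so they say nothing about stability. The adjusted p of miR-28a-3p (exact binomial test) lay between 0.00471 and 0.0443 over the alternatives. Counting the unnamed locus with miR-151-3p, an alternative chosen after seeing the data, moved its mean level to 1.39% and the mean 5p share of Mir151 to 9.64%. The number of miRNAs that differ between the libraries, 58, lay between 54 and 76. Ratios have no value without a replicate, and miR-28a-5p none at a minimum of 50 counts. Its 12 and 29 counts limit what can be said of it: its log2 ratio has a counting error of 0.50.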
